A study of Citrus reticulata and Citrus x clementina and Citrus x paradisi with 16 samples.

Results

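Growth-regulating factors (GRFs) are plant transcription factors that carry the QLQ and WRC domains. They act together with GRF-interacting coactivators, and in Arabidopsis and rice they are best known for keeping cells of leaves, flowers and seeds dividing. The microRNA miR396 recognises the transcripts of many GRF genes, which are then cut or translated less, so that the level of a GRF transcript reflects both its production and its removal. The genes described here are Cs5g01380 (annotated by the study as GRF8-like), Cs7g15220 (GRF4-like) and orange1.1t00172 (GRF5), which are 3 of the 8 GRF genes among the study's predicted miR396 targets in the sweet orange annotation. Each corresponds to 1 locus among the 22595 loci of the grapefruit and pummelo data, and each passed the filter of 1 CPM (the counts-per-million scale) in 2 or more libraries, as did 19943 loci.

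The genes were chosen by name with earlier results of these data in view, and the measured values that selected them are the counts of GF against PU ovules at the later stage, since they are the 3 of the 8 GRF genes called different there. So the values of the 8 GRF genes in that contrast, and in every contrast that shares its libraries, are given as a description with no p-value. A locus was called when edgeR's quasi-likelihood test gave an adjusted p below 0.05 over all tested loci and its log2 fold change was 1 or more in either direction. Ordered by adjusted p, the GRF gene just inside that threshold was GRF4-like, with a log2 fold change of -2.63 ± 0.69 (SE), and the gene just outside was Cs6g15330, annotated as GRF3 isoform 2, with -1.22 ± 0.45.

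Ovules of 'Cocktail' grapefruit (GF), which is polyembryonic, were compared with ovules of 'Huanong red' pummelo (PU), which is monoembryonic. In polyembryonic citrus, additional embryos arise from maternal nucellar cells of the ovule, so that seedlings carry the genotype of the mother. The stage when nucellar embryo initiation cells were seen in GF (NEI) was 3 days after flowering, and the stage before it (pre-NEI) was 0 days, that is, flowering itself. PU was sampled on the same days, although its stages carry the names set in GF. The second cultivar pair was polyembryonic 'Huagan No.2' Ponkan mandarin (PK) and monoembryonic 'Nour' clementine (CM), with NEI at 7 and pre-NEI at 3 days after flowering. All cultivars were hand-pollinated with trifoliate orange pollen, and ovaries were taken from 3 trees of each cultivar. How the trees were combined into samples is not given in the sources used here. There were 2 libraries per cultivar and stage, from 2 consecutive years, and which replicate number belongs to which year is not given in the sources used here. Markers of the ovule and of other tissues were not analysed here.

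Counts summed to 11837705 to 34195125 per library in GF and PU and to 17854403 to 24912877 in PK and CM. The GF pre-NEI replicate 2 library was the deepest. CPM below are scaled by the trimmed mean of M-values (TMM). Whole ovules were sequenced, so fewer cells of a type and less RNA per cell cannot be told apart in any value below.

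GRF8-like was the most abundant of the 3 genes. Its locus lies on chromosome 5 of the sweet orange genome, minus strand, from 335766 to 339661, with 5 assembled transcripts. It had 51.3 and 25.8 CPM in the GF NEI libraries, 75.1 and 89.9 CPM in the GF pre-NEI libraries, 121.4 and 141.9 CPM in the PU NEI libraries, and 103.0 and 149.3 CPM in the PU pre-NEI libraries. All 4 GF libraries were below all 4 PU libraries, and within GF the NEI libraries were below the pre-NEI libraries. The means were 38.6 ± 18.0 CPM in GF NEI, 82.5 ± 10.5 CPM in GF pre-NEI, 131.6 ± 14.5 CPM in PU NEI and 126.1 ± 32.7 CPM in PU pre-NEI (SD, n = 2 each). In that order of levels the PU groups overlapped, and GF NEI and GF pre-NEI stood apart from their neighbours.

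The GRF8-like count has a limit of its own. A locus on the opposite strand, Cs5g01370 on chromosome 5 from 333918 to 339649, covers nearly all of it, and the counting is not stated to use strand, so reads of the overlapping genes cannot be told apart. The count of Cs5g01370 came to 20.3% and 14.5% of the GRF8-like count in the GF NEI libraries, 19.3% and 5.82% in GF pre-NEI, 13.0% and 16.5% in PU NEI, and 9.16% and 4.29% in PU pre-NEI. With that count subtracted, a choice made after seeing the data, the GF over PU log2 fold change at NEI was -1.83, against -1.77 with the whole count.

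GRF4-like stood out by the PU NEI libraries. In rice, GRF4 is known as a miR396-controlled gene that promotes grain size. The citrus locus lies on chromosome 7, minus strand, from 10878541 to 10892624, with 6 assembled transcripts. It had 16.9 and 3.81 CPM in GF NEI, 11.5 and 5.04 CPM in GF pre-NEI, 61.2 and 67.6 CPM in PU NEI, and 4.45 and 4.57 CPM in PU pre-NEI. PU NEI was far above every other library, and the other 6 libraries lay between 3.81 and 16.9 CPM. The means were 10.4 ± 9.26 CPM in GF NEI, 8.28 ± 4.58 CPM in GF pre-NEI, 64.4 ± 4.50 CPM in PU NEI and 4.51 ± 0.084 CPM in PU pre-NEI (SD, n = 2 each). PU NEI was the highest group, and the means of GF pre-NEI and PU pre-NEI lay between the values of the GF NEI libraries.

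GRF5 was the least abundant in GF. In Arabidopsis, GRF5 promotes cell proliferation in leaf primordia. The citrus locus, on the unassigned chromosome (Un), minus strand, from 3710267 to 3712327, had 6 assembled transcripts. It had 3.84 and 3.65 CPM in GF NEI, 4.71 and 1.39 CPM in GF pre-NEI, 28.1 and 40.6 CPM in PU NEI, and 16.9 and 3.53 CPM in PU pre-NEI. The PU NEI libraries were the highest, and the PU pre-NEI replicates disagreed, with replicate 2 within the range of GF. Means were 3.75 ± 0.13 CPM in GF NEI, 3.05 ± 2.35 CPM in GF pre-NEI, 34.4 ± 8.86 CPM in PU NEI and 10.2 ± 9.48 CPM in PU pre-NEI (SD, n = 2 each). Ordered by level, PU NEI was the only group whose libraries did not overlap those of its neighbour. GRF5 rested on the fewest reads, with 44 to 85 counts in the GF libraries.

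**Figure D1:**
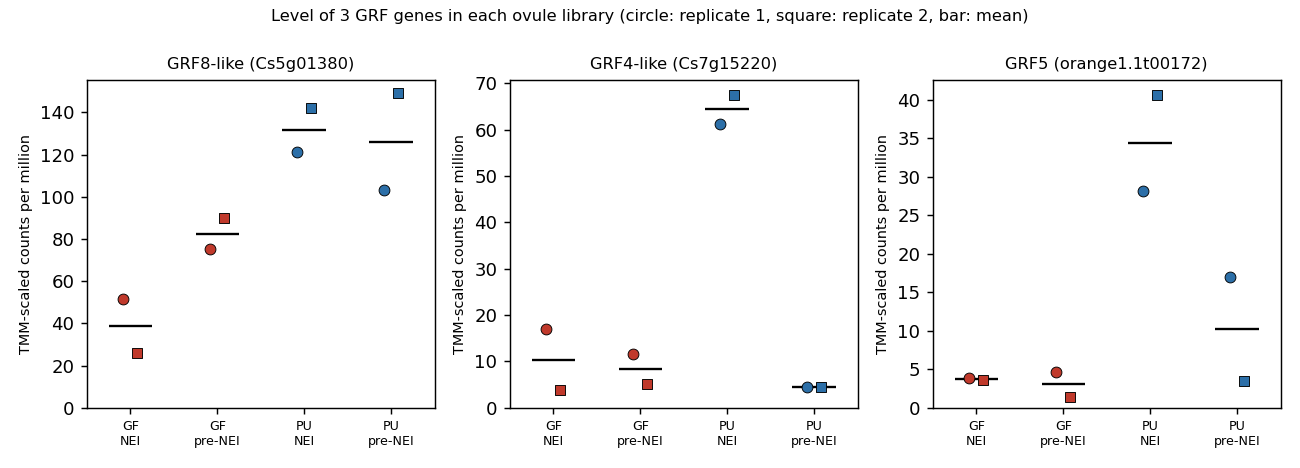
TMM-scaled CPM (y axis, linear, from 0) of the 3 genes in each library, by cultivar and stage (x axis), with circles for replicate 1, squares for replicate 2 and a bar for the mean. GRF8-like was lower in all 4 GF than in all 4 PU libraries, whereas GRF4-like and GRF5 were highest in the PU NEI libraries, at 61.2 and 67.6 CPM and at 28.1 and 40.6 CPM.

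Per kilobase of the transcript with the largest count, the 3 genes were closer to each other. In GF NEI, GRF8-like had 13.1 ± 6.13, GRF4-like 6.3 ± 5.64 and GRF5 2.67 ± 0.092 CPM per kilobase, and in PU NEI they had 44.7 ± 4.93, 39.2 ± 2.74 and 24.5 ± 6.32 CPM per kilobase (SD, n = 2 each). Summed over the 8 GRF genes, the level was 126.2 and 95.2 CPM per kilobase in GF NEI and 128.0 and 109.1 in GF pre-NEI. The same sum was 268.9 and 264.5 CPM per kilobase in PU NEI and 211.7 and 152.9 in PU pre-NEI, so that every GF library was below every PU library. The sum includes the 3 genes chosen for their NEI values, and it depends on its most abundant members. Cs5g09850 (GRF2) alone had 32.1 and 21.6 CPM per kilobase in GF pre-NEI and 94.4 and 58.8 in PU pre-NEI. With Cs5g09850 taken out of the sum, GF pre-NEI replicate 1 was above PU pre-NEI replicate 2, so the libraries did not stay apart without it. Whether they stay apart without the 3 chosen genes was not tested. GRF4-like contributed 8.15% and 2.44% of that sum in GF NEI and 13.9% and 15.6% in PU NEI. It contributed 5.48% and 2.81% in GF pre-NEI and 1.28% and 1.82% in PU pre-NEI.

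At NEI, the 3 genes were lower in GF than in PU. The log2 fold changes of GF over PU were -1.77 ± 0.37 for GRF8-like, -2.63 ± 0.69 for GRF4-like and -3.19 ± 0.84 for GRF5 (SE, n = 2 each), which are 3.41-fold and 6.19-fold lower for the first 2 genes. Libraries did not overlap for any of the 3. All 3 were called lower, while 9.79% of all tested loci were called lower and 12% higher in that contrast, and 32.3% had GF libraries that were all below the PU libraries. These counts describe the choice of the genes. With 1 library left out, the number of called genes among the 3 was 2 without GF NEI replicate 1, 0 without GF NEI replicate 2, 1 without PU NEI replicate 1 and 0 without PU NEI replicate 2. The direction stayed the same without any of these libraries.

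Before initiation, the values of the 3 genes differed in sign, and those of GRF4-like and GRF5 moved with single libraries. At pre-NEI the log2 fold change of GF over PU was -0.61 ± 0.36 for GRF8-like, whose GF libraries were all below the PU libraries. It was 0.87 ± 0.67 for GRF4-like, whose GF libraries were both above the PU libraries, and 0.17 without GF pre-NEI replicate 1. It was -1.77 ± 0.80 for GRF5, whose libraries overlapped, and ranged from -2.88 without GF pre-NEI replicate 1 to -0.25 without PU pre-NEI replicate 1. None of the 3 was called, in a contrast with 6.57% of loci called in either direction. GF libraries were all below the PU libraries at 25.5% of loci and all above at 29% of loci.

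The 3 genes also differed in their stage values. In GF, the log2 fold change of NEI over pre-NEI was -1.10 ± 0.37 for GRF8-like, with NEI libraries below pre-NEI libraries, as at 25.4% of loci. It was 0.33 ± 0.66 for GRF4-like and 0.31 ± 0.80 for GRF5, both with overlapping libraries and both negative without GF pre-NEI replicate 2, at -0.15 and -0.33. Without GF NEI replicate 1 the GRF4-like value was -1.10. In PU, GRF8-like had a log2 fold change of 0.06 ± 0.36 with overlapping libraries, negative without PU NEI replicate 2 (-0.042) or PU pre-NEI replicate 1 (-0.11). GRF4-like was 14.3-fold higher at NEI in PU, a log2 fold change of 3.83 ± 0.74, and GRF5 was 3.34-fold higher, a log2 fold change of 1.74 ± 0.79, both without overlap of the libraries, as at 26.8% of loci. The GRF5 value in PU moved with PU pre-NEI replicate 1, the library with 16.9 CPM. It was 3.36 on the log2 scale without that library and 1.02 without PU pre-NEI replicate 2.

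No locus (0%) was called between the stages by the quasi-likelihood test, in GF or in PU. At an unadjusted p below 0.05 there were 3358 loci in GF and 4191 in PU. DESeq2 called 1232 loci in GF and 1716 in PU, and edgeR's exact test called 825 and 940. None of the 3 genes was called in GF by any of these tools. In PU, DESeq2 and the exact test called GRF4-like higher at NEI, and DESeq2 called 3.81% of all loci higher there. Since the gene was chosen on values that include the PU NEI libraries, these calls are a description and not a test.

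The stage difference of GF minus that of PU, the interaction, was -1.16 ± 0.51 on the log2 scale for GRF8-like, -3.50 ± 0.96 for GRF4-like and -1.43 ± 1.11 for GRF5. It was negative for all 3, with GRF4-like the farthest from 0. With 1 library left out, GRF8-like ranged from -1.79 without GF NEI replicate 1 to -0.75 without GF NEI replicate 2, and GRF4-like from -5.01 without GF NEI replicate 1 to -2.79 without GF pre-NEI replicate 1. GRF5 ranged from -3.05 without PU pre-NEI replicate 1 to -0.31 without GF pre-NEI replicate 1. The quasi-likelihood test called no locus for the interaction, with 2338 at an unadjusted p below 0.05, and DESeq2 called 456, among them GRF4-like with a negative value, as 1.03% of loci. This contrast, the NEI contrast and the stage contrast in PU share the PU NEI libraries, so their values for a gene are not separate evidence.

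The assembled transcripts of the 3 genes were compared by the authors' FPKM (fragments per kilobase of exon, scaled to the mapped total), which pool the replicates into 1 value per cultivar and stage and so have no error. For GRF4-like, transcript TCONS_00079648 of 1101 bp took 73.8% of the summed FPKM in GF NEI, 68.9% in GF pre-NEI, 39.6% in PU NEI and 59.8% in PU pre-NEI. Transcript TCONS_00071446 of 1578 bp took 9.84% in GF NEI and 5.06% in GF pre-NEI, against 42.5%, or 14.7 FPKM, in PU NEI and 0.14% in PU pre-NEI. By FPKM, the transcript composition of GRF4-like in PU NEI was thus unlike that of the other groups.

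The counts per library did not show that difference. The count of TCONS_00071446 divided by that of TCONS_00079648 was 1.07 and 1.27 in GF NEI, 1.15 and 1.08 in GF pre-NEI, 1.23 and 1.23 in PU NEI, and 1.24 and 1.19 in PU pre-NEI. PU NEI lay inside the range of the other libraries. Within a library, the deposited counts of the other 5 transcripts were 0.755 to 1.02 times that of TCONS_00073738, the transcript with the largest count over all libraries, so that reads appear to have been counted for every transcript they overlap, and the counts say little about which transcript was present. Whether the transcript choice differed could therefore not be tested.

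For GRF8-like, 2 transcripts led in every group. TCONS_00047427 of 2276 bp took 44.6% of the summed FPKM in GF NEI, 40.7% in GF pre-NEI, 50.8% in PU NEI and 49.5% in PU pre-NEI. TCONS_00050334 of 2944 bp took 36.5% in GF NEI, 42.5% in GF pre-NEI, 37.1% in PU NEI and 39.2% in PU pre-NEI. For GRF5, TCONS_00099690 of 1401 bp led with 37.4% in GF NEI, 48.0% in PU NEI and 49.2% in PU pre-NEI. In GF pre-NEI it took 31.4%, behind TCONS_00102906 of 772 bp with 33.6%. TCONS_00106786 of 1442 bp had 0.29 FPKM in GF NEI and 0.70 FPKM in GF pre-NEI and was listed at 0 in both PU groups, while its counts were 44 to 91 in GF libraries and 38 to 565 in PU libraries.

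**Figure D2:**
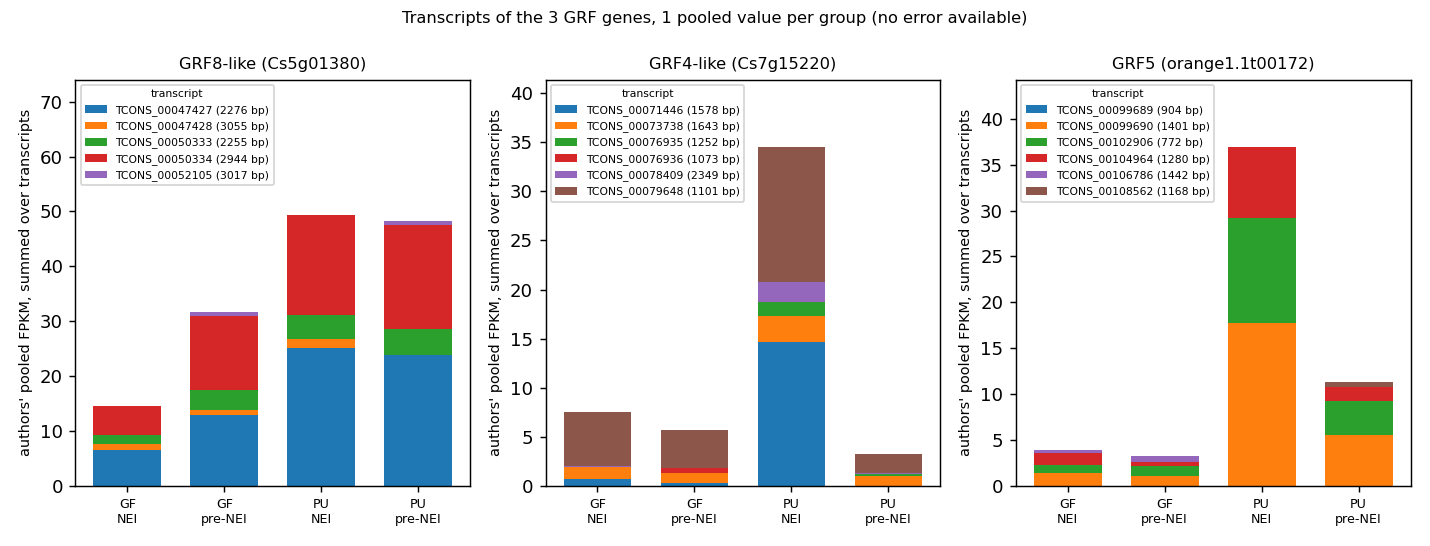
The authors' pooled FPKM of each assembled transcript (stacked colours, y axis linear from 0) by cultivar and stage (x axis), 1 value per group with no error. In PU NEI the GRF4-like transcript TCONS_00071446 had 14.7 FPKM, or 42.5% of the sum, and GRF8-like was led by transcripts TCONS_00047427 and TCONS_00050334 in all 4 groups.

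The remaining 5 GRF genes are those that were not called at NEI, so their values there are a description too and carry no p-value. At NEI all 5 had negative log2 fold changes of GF over PU, with a median of -0.88, against 0.056 over all tested loci. For 4 of the 5 the GF libraries were below the PU libraries, which was the case for 32.3% of all tested loci. Cs1g17560 had 7.92 and 4.98 CPM in GF NEI and 23.7 and 31.7 CPM in PU NEI. Its log2 fold change was -2.10 ± 0.83. Cs6g15330 had 28.3 and 16.6 CPM in GF NEI and 46.1 and 58.7 CPM in PU NEI, and its log2 fold change was -1.22 ± 0.45. These 2 genes, Cs1g17560 being annotated as a GRF with no number, lay in the same direction as the 3 above. DESeq2, which called 14.7% of loci lower there, called both lower, so that the choice of the 3 genes depends on the tool.

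Cs5g09850, annotated as GRF2, was the most abundant GRF per kilobase at NEI, with 43.7 ± 7.30 CPM per kilobase in GF NEI and 80.3 ± 23.1 in PU NEI (SD, n = 2 each). Its log2 fold change of GF over PU was -0.88 ± 0.35 at NEI and -1.51 ± 0.36 at pre-NEI. The pre-NEI libraries were not used in the choice, and there the edgeR adjusted p was 0.0514, while DESeq2 gave 0.00385 and called 5.38% of loci lower. None of the other 4 was called at pre-NEI by either tool. Among the 5 at pre-NEI, GF libraries were below the PU libraries for 2, Cs5g09850 and orange1.1t03122, where 25.5% of loci were so. They were above the PU libraries for 1, orange1.1t02555, where 29% of loci were so. orange1.1t03122 (GRF4-like isoform x2) and orange1.1t02555 (GRF2-like) were near 0 at NEI, at -0.20 ± 0.28 and -0.18 ± 0.46. At pre-NEI they were at -0.39 ± 0.28 and 0.99 ± 0.47, and Cs1g17560 and Cs6g15330 were at -0.14 ± 0.80 and -0.12 ± 0.44.

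**Figure D3:**
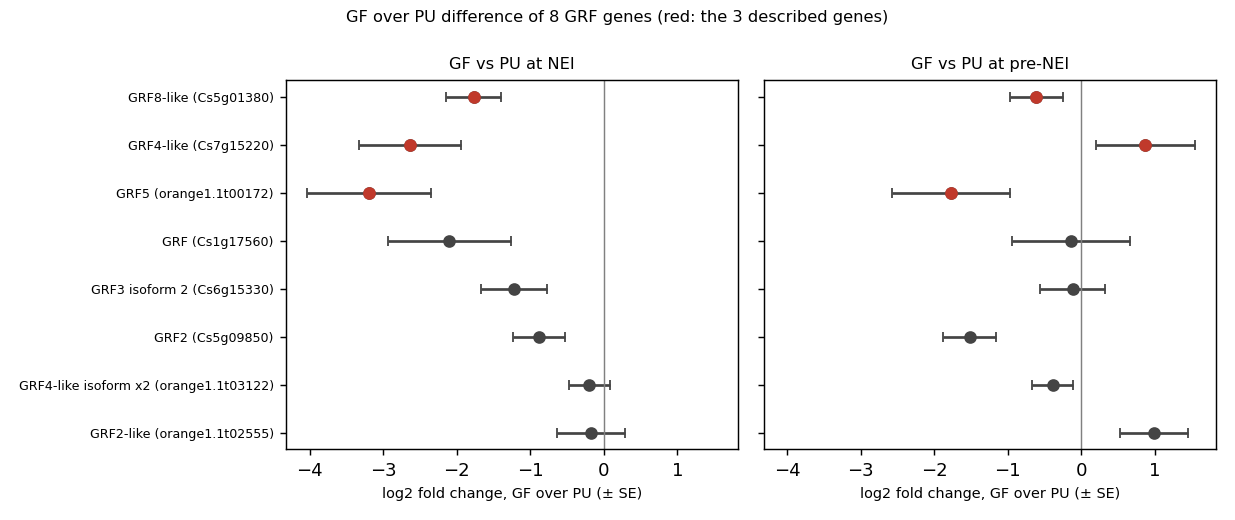
Log2 fold change of GF over PU (x axis, points, with bars for the SE, n = 2 libraries per cultivar and stage) for the 8 GRF genes (rows), at NEI on the left and pre-NEI on the right, with the 3 described genes in red. At NEI all 8 points are below 0, from -3.19 for GRF5 to -0.18 for orange1.1t02555, and at pre-NEI GRF4-like (0.87) and orange1.1t02555 (0.99) are above 0.

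Within each cultivar, the stage values of the other 5 GRF genes were smaller than those of GRF4-like in PU. In PU all 5 had positive log2 fold changes of NEI over pre-NEI, from 0.069 to 1.83 with a median of 0.38. Without PU pre-NEI replicate 2, only 2 of the 5 were positive and the median was -0.093. In GF, 2 were positive and 3 negative, with a median of -0.13. Cs1g17560 had the largest of these values, with 23.7 and 31.7 CPM in PU NEI and 12.6 and 2.88 CPM in PU pre-NEI.

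The mandarin libraries were not used in choosing the 3 genes, and there the GRF genes could be tested. The study lists 9 GRF genes as predicted miR396 targets in the clementine annotation, and all 9 passed the filter. No match between single genes of the 2 annotations was made here, so the names below are those of the annotation. At pre-NEI all 9 GRF genes were higher in both PK libraries than in both CM libraries, which was the case for 32.4% of all loci. The 9 genes share these libraries, so they do not count as separate observations. The median log2 fold change of PK over CM was 1.1, against 0.0042 over all loci, and it stayed positive for all 9 genes with any 1 library left out. None of the 9 was called by edgeR's quasi-likelihood test, in a contrast with 3.6% of loci called, and 1 was called by each of DESeq2 and edgeR's exact test.

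That gene was Ciclev10022033m.g, annotated as GRF2. It had 35.5 and 34.0 CPM in PK pre-NEI and 10.3 and 6.01 CPM in CM pre-NEI, and 14.6 and 36.7 CPM in PK NEI and 34.8 and 39.2 CPM in CM NEI. CM pre-NEI was below every other library. The log2 fold change of PK over CM at pre-NEI was 2.09 ± 0.49, with an edgeR adjusted p of 0.066, 0.0343 with the replicate number as a block (4.27% of loci called higher), 0.0028 by DESeq2 (5.35% of loci called higher) and 0.0113 by the exact test. It was thus past the threshold in all of these tests but the quasi-likelihood test without the block.

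The 4 mandarin genes annotated as GRF5 had log2 fold changes of PK over CM at pre-NEI of 1.1 ± 0.49 (Ciclev10001613m.g), 2.15 ± 0.90 (Ciclev10008922m.g), 2.08 ± 0.89 (Ciclev10025855m.g) and 1.74 ± 0.79 (Ciclev10032065m.g). Their edgeR adjusted p-values were 0.242, 0.215, 0.222 and 0.247. The gene annotated as GRF8, Ciclev10019828m.g, was at 0.89 ± 0.59 and that annotated as GRF4, Ciclev10011856m.g, at 0.43 ± 0.43, with adjusted p-values of 0.412 and 0.588. Ciclev10025209m.g (GRF1) and Ciclev10019529m.g (GRF7) were at 0.78 ± 0.55 and 0.33 ± 0.83.

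In CM all 9 GRF genes had positive log2 fold changes of NEI over pre-NEI, with a median of 1.58 against -0.011 over all loci. For 7 of the 9 both NEI libraries were above both pre-NEI libraries, which was the case for 17.4% of loci. Here too the genes share their libraries. The highest values were 2.35 ± 0.90 for Ciclev10025855m.g (GRF5) and 2.18 ± 0.49 for Ciclev10022033m.g (GRF2), with edgeR adjusted p-values of 0.488 and 0.408. DESeq2 gave 0.00825 for Ciclev10022033m.g and the exact test 0.047, where DESeq2 called 1.46% of loci higher. The values of Ciclev10001613m.g (GRF5) and Ciclev10019828m.g (GRF8), 0.60 ± 0.49 and 0.42 ± 0.59, turned negative without CM NEI replicate 2. The quasi-likelihood test called no locus between the stages of CM, with 1775 at an unadjusted p below 0.05, and DESeq2 called 389. This contrast shares the CM pre-NEI libraries with the contrast of PK and CM at pre-NEI.

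In PK the replicates at NEI disagreed for every GRF gene. Replicate 2 was above replicate 1 for 9 of 9, by 1.65-fold to 10.1-fold. Ciclev10019529m.g (GRF7), for example, had 13.1 and 132.3 CPM. The log2 fold changes of NEI over pre-NEI in PK had a median of 0.079, with 5 positive and 4 negative values, and those of PK over CM at NEI a median of -0.15, with 3 positive and 6 negative. Without PK NEI replicate 1 the medians were 0.72 and 0.65, and without PK NEI replicate 2 they were -1.49 and -1.51, so that these libraries gave no direction. No GRF gene was called in either contrast, and PK over CM at NEI had 1.64% of loci called. The quasi-likelihood test called no locus between the stages of PK, with 692 at an unadjusted p below 0.05, and DESeq2 called 15.

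**Figure D4:**
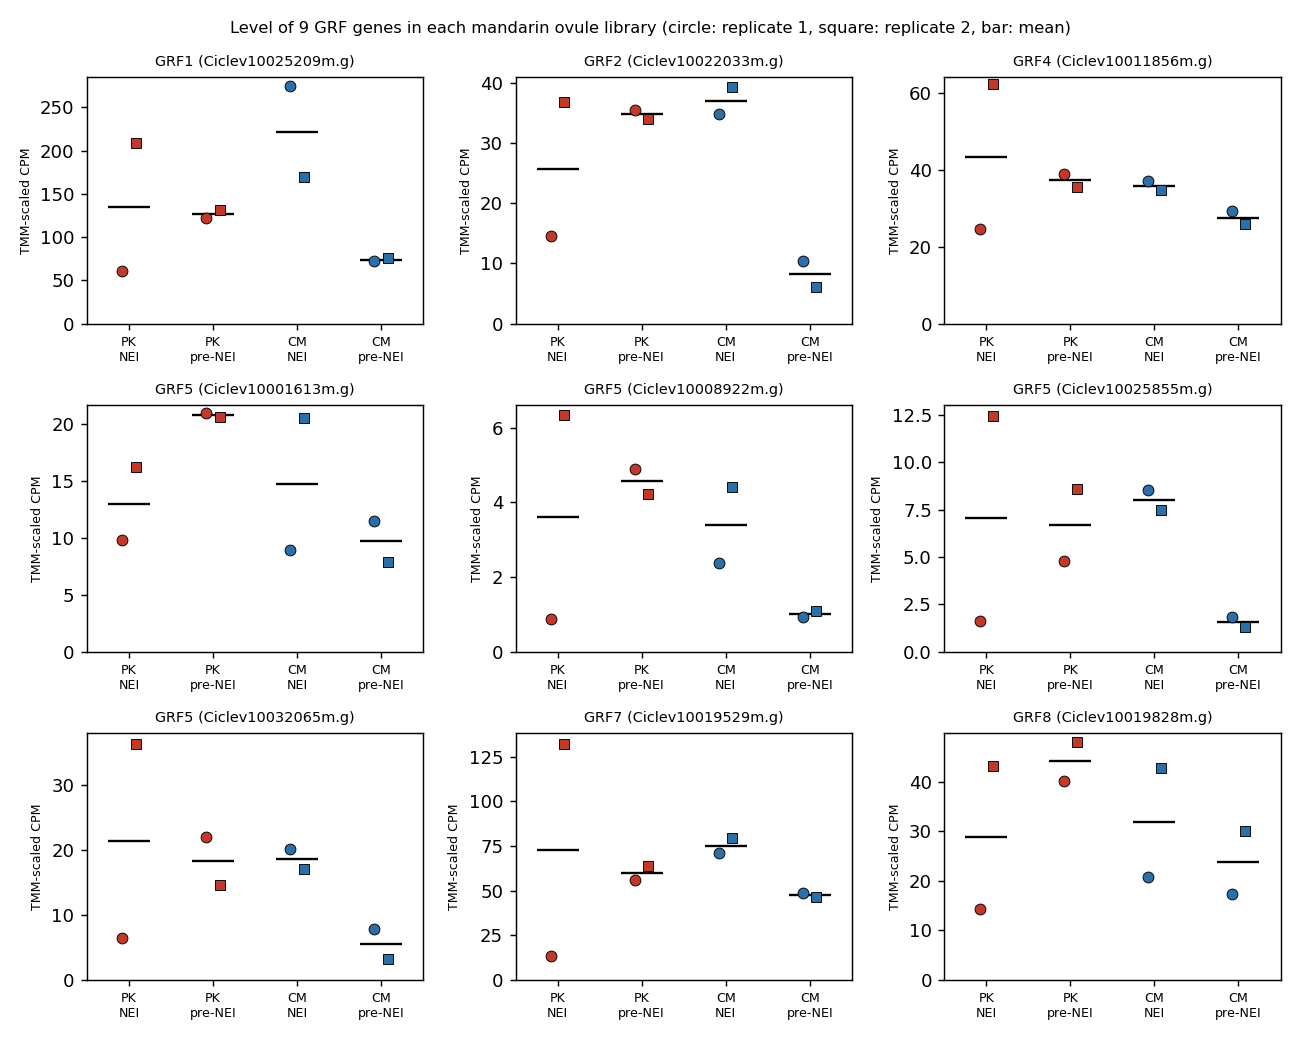
TMM-scaled CPM (y axes, linear, from 0, each panel with its own scale) of the 9 mandarin GRF genes in each library, by cultivar and stage (x axis), with circles for replicate 1, squares for replicate 2 and a bar for the mean. Both PK pre-NEI libraries are above both CM pre-NEI libraries in all 9 panels, and in PK NEI replicate 2 is above replicate 1 in all 9.

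The mandarin and the grapefruit and pummelo values stood side by side as follows, although the days of the stages differed. Pre-NEI was 3 days after flowering in PK and CM and 0 days in GF and PU, and NEI was 7 and 3 days. At pre-NEI the polyembryonic cultivar was higher for 9 of 9 GRF genes in PK against CM and for 2 of 8 in GF against PU. Of the latter, only GRF4-like was among the 3 described genes. Over all loci the median log2 fold change was 0.0042 for PK over CM and -0.0029 for GF over PU. The quasi-likelihood test called no GRF gene in either of these contrasts. The count in GF and PU moved with single libraries. Of the 5 GRF genes beside the 3 described, 1 was positive with all libraries. Without GF pre-NEI replicate 2, or without PU pre-NEI replicate 1, 3 of the 5 were positive. The stage by cultivar interaction was negative for all 9 genes in PK and CM, with a median of -1.49, against 0.057 over all loci. In GF and PU, 3 of the 5 GRF genes beside the 3 described were negative and 2 positive, with an all-loci median of 0.013. The 3 described genes were negative too, but they were chosen on NEI libraries that enter this contrast. In PK and CM the interaction rested on the PK NEI libraries that disagreed. Without PK NEI replicate 1 its median was -0.89 with 2 of the 9 positive, and without PK NEI replicate 2 it was -2.86. In neither pair did the quasi-likelihood test call any GRF gene, or any locus, for the interaction. In PK and CM, 1540 loci had an unadjusted p below 0.05 and DESeq2 called 246. Whether the pairs differed was not tested, since their reads were counted on different annotations.

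Of the 21 other predicted miR396 targets of the sweet orange annotation, 19 had a locus and passed the filter. At NEI, 2 of these were called higher and 1 lower in GF than in PU, where 21.7% of all loci were called, and their median log2 fold change was 0.16, against 0.056 over all loci. Cs4g05000, annotated as a NEDD8 ultimate buster 1-like gene, had 143.8 and 149.7 CPM in GF NEI and 70.8 and 59.2 CPM in PU NEI. Cs5g19200, a eukaryotic translation initiation factor 2D-like gene, had 32.7 and 26.4 CPM in GF NEI and 11.7 and 16.3 CPM in PU NEI. Cs2g09620, annotated as an outer arm dynein light chain, had 36.6 and 18.4 CPM in GF NEI and 135.3 and 157.0 CPM in PU NEI, in a locus that carries 2 reference genes. The log2 fold changes were 1.17 ± 0.26, 1.08 ± 0.29 and -2.41 ± 0.56, with edgeR adjusted p-values of 0.0206, 0.0362 and 0.0245 by the quasi-likelihood test and 0.0238, 0.0715 and 0.000225 by the exact test, so that Cs5g19200 was not called by the exact test. The 3 genes are named because the quasi-likelihood test called them, so its p-values for them were below 0.05 by that choice. Each of the 3 lost its call without any 1 of the 4 NEI libraries. The 19 genes were called in no other contrast of GF and PU by that test, and the 15 such mandarin genes with a locus, of 17 listed, were called in none.

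The genes with a level most like each of the 3 GRF genes were found by Pearson correlation of log2(CPM + 1) over the 8 GF and PU libraries, among 14967 loci with 1 reference gene. For GRF4-like the closest was orange1.1t00474 (r = 0.984), annotated by the study as a centromeric histone H3-like protein, HTR12-like, and itself among the predicted miR396 targets. HTR12 is the Arabidopsis name of the histone that marks centromeres. orange1.1t00474 had 4.50 and 2.64 CPM in GF NEI, 3.77 and 2.39 in GF pre-NEI, 8.10 and 10.4 in PU NEI, and 2.82 and 2.80 in PU pre-NEI. PU NEI was the highest, which follows from picking the gene by its likeness to GRF4-like. Next came Cs5g28190 (r = 0.982) and orange1.1t06010 (r = 0.98). For GRF8-like the closest were Cs2g16860 (r = 0.969), Cs5g21760 (r = 0.965) and Cs8g01970 (r = 0.963), and for GRF5 Cs3g25190 (r = 0.996), orange1.1t03013 (r = 0.992) and Cs3g26520 (r = 0.992). Levels were low for some of these genes, at 1.12 to 2.01 CPM for Cs5g28190 and 0 to 7.16 CPM for Cs3g25190. Among the 3 GRF genes, r was 0.388 for GRF8-like with GRF4-like, 0.476 for GRF8-like with GRF5 and 0.742 for GRF4-like with GRF5. These correlations are descriptions over 8 libraries that fall into 4 groups. By Spearman correlation the closest genes of each of the 3 were others.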

How the data were processed

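The authors filtered the reads, mapped them with TopHat and Bowtie, using the sweet orange genome for GF and PU libraries and the clementine genome for PK and CM libraries, and assembled transcripts with Cufflinks; versions, genome release, counter, strand setting and the treatment of reads with several hits are not given in the sources used here. The deposited counts are whole numbers per assembled transcript and library, and their header names no unit; they were read as read counts. The deposited FPKM values are 1 per transcript, cultivar and stage, with replicates pooled by the authors. All value columns were used.

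A locus was given the count of its most counted transcript, from 94049 transcripts in GF and PU and 89598 in PK and CM. Loci that reached 1 CPM in 2 or more libraries (19943 and 18749) were tested with edgeR 4.0.16 in R 4.3.3 (TMM scaling, two-sided quasi-likelihood test, the 8 libraries of a cultivar pair fitted as 4 groups, Benjamini-Hochberg adjustment over all tested loci); the scripts were checked on simulated counts. Residual degrees of freedom were 4, and p-values measure the spread between yearly samples. DESeq2 1.42.0, edgeR's exact test, filters, sums over transcripts and left-out libraries were alternatives. The fit with the replicate number as a block was another. Deviations of same-numbered libraries correlated at 0.329 to 0.56 in PK and CM, where the numbers were taken as pairs. In GF and PU, where they were not, the range was 0.0726 (GF pre-NEI with PU NEI) to 0.624 (GF pre-NEI with PU pre-NEI). The GF over PU values at pre-NEI without the block thus leave that likeness out.

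The members and gene lists, taken from the study's predicted miR396 targets, were chosen with earlier results of these data known. Named are the 3 genes, the other listed GRF genes, at most 4 called other targets by fold change, and the 3 most correlated loci per gene. GRF-interacting factors, cyclins, tissue markers, sequences and small RNA data were not analysed here.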

Additional observations from a re-analysis of the deposited data

How the results depend on the processing

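With 2 libraries per group, counts of called loci moved with the tool more than single fold changes did. The main counts were 1310 loci for GF over PU at pre-NEI, 4336 at NEI, 675 for PK over CM at pre-NEI and 307 at NEI, and 0 for the stage and interaction contrasts. DESeq2 gave 2619 for GF over PU at pre-NEI, 1232 for the stages of GF, 1716 for those of PU and 456 for their interaction, and 2428 for PK over CM at pre-NEI, 1085 at NEI, 15 and 389 for the stages of PK and CM, and 246 for their interaction. At pre-NEI the PK over CM calls were 210 higher and 465 lower by edgeR, and 1003 higher and 1425 lower by DESeq2. The exact test gave 2174 for GF over PU at pre-NEI, 825 and 940 for the stages of GF and PU, 1546 and 808 for PK over CM at pre-NEI and NEI, and 6 and 140 for the stages of PK and CM. A minimum of 5 CPM gave 713 for GF over PU at pre-NEI, 6 for the stages of PU, and 409 and 203 for PK over CM at pre-NEI and NEI. Sums over transcripts gave 842 for GF over PU at pre-NEI, and a fit of the 4 libraries compared gave 533 there, and 1353 and 0 for PK over CM at pre-NEI and NEI. With the replicate block, counts were 2105 for GF over PU at pre-NEI, 461 and 507 for the stages of GF and PU, and 2006 and 625 for PK over CM at pre-NEI and NEI; the block called GRF4-like for the stages of PU and Cs1g17560, Cs6g15330 and, at pre-NEI, Cs5g09850 for GF over PU, and in PK and CM it changed the call of no GRF gene but Ciclev10022033m.g. The causes were not tested.

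With 1 library left out, counts ranged from 101 to 987 for GF over PU at pre-NEI, from 494 to 4549 at NEI, from 0 to 1 for the stages of GF, from 0 to 41 for those of PU, from 2 to 763 for PK over CM at pre-NEI and from 2 to 137 at NEI; the lone library of a group is then assumed to vary like the other groups. The GF over PU log2 fold change at NEI ranged from -2.42 to -1.35 for GRF8-like, from -4.15 to -1.92 for GRF4-like and from -3.45 to -2.92 for GRF5. GRF8-like lost its call without GF NEI replicate 2 or PU NEI replicate 2, GRF4-like without either of these or PU NEI replicate 1, and GRF5 without any 1 of the 4 NEI libraries. Several GRF values given gene by gene turned their sign with 1 library left out. Between the stages of GF, GRF4-like ranged from -1.10 to 1.04 and GRF5 from -0.33 to 1.43, and between those of PU GRF8-like ranged from -0.11 to 0.35 and was -0.077 with the overlapping count subtracted. For GF over PU at pre-NEI, Cs1g17560 ranged from -1.45 to 1.27 and Cs6g15330 from -0.59 to 0.57, both positive without GF pre-NEI replicate 2 (0.55 and 0.059) or PU pre-NEI replicate 1. At NEI, orange1.1t02555 ranged from -1.24 to 0.41, positive without GF NEI replicate 2. Between the stages of CM, Ciclev10001613m.g ranged from -0.12 to 1.14 and Ciclev10019828m.g from -0.20 to 0.91, with the negative values without CM NEI replicate 2. None of these values was called. Of the called other miR396 targets, Cs5g19200 also lost its call without the filter, in a fit of the 4 libraries compared, and without GF pre-NEI replicate 1, GF pre-NEI replicate 2 or PU pre-NEI replicate 1; log2 fold changes ranged from 0.84 to 1.32 for Cs5g19200, from 1.03 to 1.29 for Cs4g05000 and from -3.06 to -1.99 for Cs2g09620 with 1 library left out.

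The stage value of GRF4-like in PU was 3.41 by the authors' pooled FPKM. Shares of transcripts depended on the measure: TCONS_00047427 took 19.3% of the GRF8-like counts and 47.5% of its FPKM, TCONS_00079648 took 15.1% and 49.3% for GRF4-like, and TCONS_00099690 took 21.8% and 46.5% for GRF5, where counts repeat reads shared by transcripts. By Spearman correlation 0 of the 3 closest genes stayed among the closest 3 for GRF8-like, 0 for GRF4-like and 0 for GRF5. Depth limited GRF5 most, and a count of 0 would allow at most 0.0945 to 0.24 CPM in a GF or PU library, for counting error only.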
